A study of Mus musculus with 33 samples.

Results

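The transcriptional response of CAST liver to tunicamycin (TM) was measured in 5 livers out of the 33 samples of the series. CAST (CAST/EiJ) is an inbred strain derived from wild Mus musculus castaneus, and TM is an antibiotic that blocks N-linked glycosylation, the attachment of sugar chains to proteins in the endoplasmic reticulum (ER). The 3 TM livers (TM 1, TM 2 and TM 3) came from male CAST mice that received 1 mg/kg TM in DMSO by intraperitoneal injection. The 2 control livers (control 2 and control 3) came from male CAST mice that received DMSO alone. All were 15 to 23 weeks old, carried no transgene or deletion, and were dissected 24 h after injection according to the sample records, although the study's methods give a shorter time. The study began with 3 replicates per treatment, and its authors removed samples that did not cluster with their treatment, so the 2 controls left are samples that had already passed a filter on the separation examined below. Members of the comparison were all genes of the CAST liver table with a mean normalised count of at least 5 over the 5 libraries, which kept 17097 of 28722 genes.

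Unfolded proteins in the ER are sensed by 3 membrane proteins, which together drive the unfolded protein response (UPR). ATF6 and IRE1 (with its target XBP1) switch on genes for chaperones and for the degradation of misfolded proteins. PERK slows general translation while allowing ATF4 to be made, and ATF4 and its target CHOP (the product of Ddit3) switch on genes of amino acid supply, redox balance and cell death. The liver secretes most plasma proteins and is therefore rich in ER, and prolonged ER stress in mouse liver is known to be accompanied by lower expression of metabolic genes.

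With TM, 1892 genes were called higher (11.1% of those tested) and 1781 were called lower (10.4%) in CAST liver. A call required an adjusted p below 0.05 by limma (moderated test with Benjamini-Hochberg adjustment over 17097 genes) and a change of at least 1.5-fold on the log2(normalised count + 1) scale. The median of the called genes was 1.32 among the higher and -1.36 among the lower, as log2 fold changes, and changes of 8-fold or more were found for 131 and 127 of them. The median over all 17097 genes was -0.04. Without one library the number called higher ranged from 1198 (without control 2) to 1686, and the number called lower from 982 (without control 3) to 1615. Without TM 3 they were 1205 and 1125. Both totals were smaller in every left-out fit than with all 5 libraries. List counts given below for left-out fits are therefore to be read beside fewer calls over all genes, and a smaller count is not particular to a list. Nothing in the labels says that the mice came from separate litters or injection days, so p-values measure the spread between these 5 animals.

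**Figure D1:**
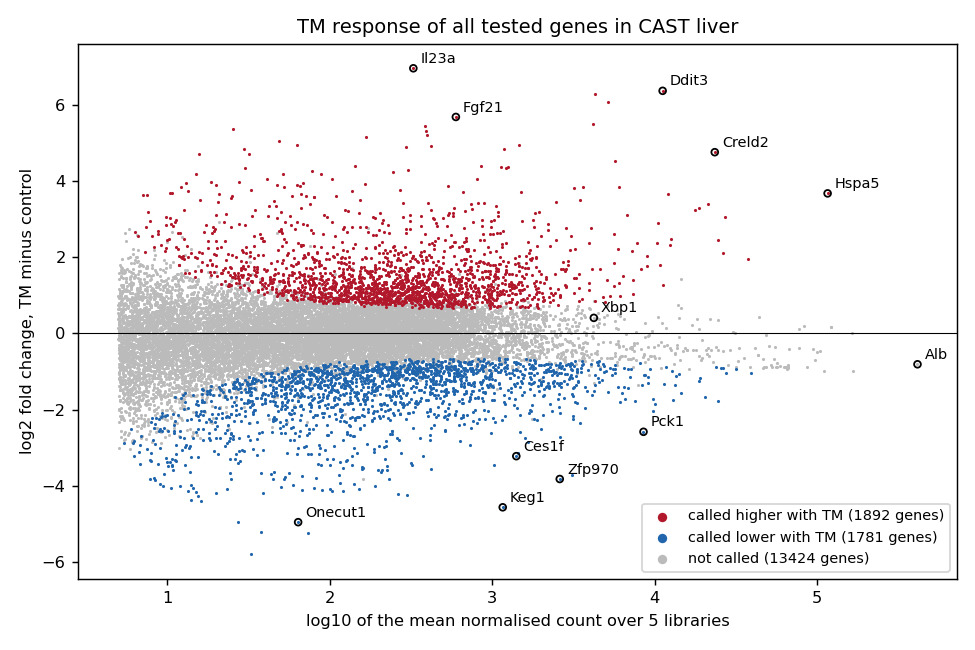
Log2 fold change (TM minus control) of 17097 genes in CAST liver against the log10 of their mean normalised count over 5 libraries. Red points are 1892 genes called higher, blue points are 1781 called lower and grey points were not called. Creld2 and Hspa5 lie far to the right at 4.75 and 3.67, while Alb, with the highest mean of the labelled genes, lies at -0.81 and was not called.

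The libraries held between 6125528 (TM 2) and 16215680 (TM 1) reads in genes, and the other 3 held 9523003 to 13313729. Correlations of log2 values were 0.951 to 0.96 among TM livers, 0.956 between the controls and 0.879 to 0.909 between TM and control livers. No hepatocyte marker of 10 was called, beside 21.5% of all genes called in either direction. The summed level of the hepatocyte markers was 444500 to 577300 in TM livers, against 686200 and 1017000 in controls. Much of that sum was Alb alone (253800 to 367600 with TM, against 442700 and 674800). Of 13 macrophage and Kupffer cell markers 1 was called (Marco, a scavenger receptor, at 2.28 log2, with an adjusted p of 0.077 without control 2), and their sum was 2562 to 4565 with TM and 3774 and 4282 in controls. None of 12 endothelial markers was called, 1 of 12 stellate cell markers and 1 of 8 bile duct cell markers were called lower, and only 2 of 13 kidney tubule markers reached the minimum level. In whole liver, fewer cells of a type and less RNA per cell cannot be told apart. The controls differed from each other by at least 2-fold for many genes, of which 1229 were higher in control 2 and 937 in control 3.

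The rises most typical of a UPR were large in every TM liver. Creld2, an ER-resident folding factor, had 38980, 38840 and 36230 normalised counts in TM 1, TM 2 and TM 3, against 1491 and 1330 in the controls (log2 fold change 4.75, SE 0.23, adjusted p = 1e-05 by limma, as for all adjusted p below). Hspa5 (BiP), the main ER chaperone, had 199200, 164900 and 184200 with TM, against 10920 and 18690 (3.67, SE 0.34). No TM value of either gene approached a control value. Hyou1, which recharges BiP with nucleotide, had a mean of 27530 ± 1604 in the 3 TM livers, against 2916 ± 531 in both controls (± SD). Ddit3, the gene of the stress-induced transcription factor CHOP, had 16350, 18130 and 20770 with TM, against 482 in control 2 and 102 in control 3 (6.36, SE 0.50). Herpud1, a scaffold of the ER degradation machinery, had 25670, 25380 and 36590 with TM, against 3308 and 2611 (3.29, SE 0.27).

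To show sequence that goes with these rises, 300-base windows around transcription starts (250 bases before and 50 after) were read from RefSeq for build GRCm38.p6 and searched on both strands for motifs that are textbook binding sequences of UPR factors. That build is the B6 reference, so the windows show reference sequence and not CAST alleles. The motifs were the ER stress response element ERSE (CCAAT and CCACG with 9 bases between them), ERSE-II (ATTGG and CCACG with 1 base between them) and the composite site of ATF4 and CHOP (TGATG and AA with 1 base between them). Where a gene had several starts, the window with the most matches was taken. Among genes that rose, Ddit3 and the folding gene Sdf2l1 held no match in any window. Windows of 4 genes that rose and held a match are given 5′ to 3′ on the gene's strand, with matches in capitals. They are those of the chaperone gene Hspa5 (chr2:34771840-34772139, + strand, ERSE), Creld2 (chr15:88819396-88819695, + strand, ERSE in reverse), Herpud1 (chr8:94386179-94386478, + strand, ERSE-II, and the composite site in reverse) and Chac1 (chr2:119350992-119351291, + strand, composite site in reverse).
Hspa5: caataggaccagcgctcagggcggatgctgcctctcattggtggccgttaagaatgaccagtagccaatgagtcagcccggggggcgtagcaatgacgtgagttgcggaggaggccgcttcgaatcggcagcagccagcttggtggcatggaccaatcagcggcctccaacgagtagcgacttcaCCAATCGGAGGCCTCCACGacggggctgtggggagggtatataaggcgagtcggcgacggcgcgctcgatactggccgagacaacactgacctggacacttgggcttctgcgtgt
Creld2: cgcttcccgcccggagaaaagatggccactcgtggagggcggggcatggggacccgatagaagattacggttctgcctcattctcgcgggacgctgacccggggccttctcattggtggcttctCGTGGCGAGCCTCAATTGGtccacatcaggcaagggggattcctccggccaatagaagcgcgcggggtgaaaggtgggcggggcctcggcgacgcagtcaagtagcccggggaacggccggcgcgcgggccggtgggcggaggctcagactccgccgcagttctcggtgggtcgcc
Herpud1: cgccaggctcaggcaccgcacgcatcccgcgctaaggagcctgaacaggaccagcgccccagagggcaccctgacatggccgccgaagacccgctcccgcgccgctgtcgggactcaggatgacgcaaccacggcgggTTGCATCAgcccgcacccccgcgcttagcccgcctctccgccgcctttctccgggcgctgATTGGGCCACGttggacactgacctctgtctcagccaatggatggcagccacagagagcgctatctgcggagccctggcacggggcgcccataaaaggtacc
Chac1: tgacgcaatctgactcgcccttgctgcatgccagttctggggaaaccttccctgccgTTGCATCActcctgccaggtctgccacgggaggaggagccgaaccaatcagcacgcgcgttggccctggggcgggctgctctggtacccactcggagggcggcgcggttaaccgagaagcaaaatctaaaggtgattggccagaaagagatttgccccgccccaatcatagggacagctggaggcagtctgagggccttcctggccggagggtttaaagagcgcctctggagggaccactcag

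ERSE was found in the windows of 7 of 24 ER chaperone genes that had a window (29.2%), among them Hspa5 and Creld2. It was found for 37 of 27025 genes overall (0.137%) and 21 of 10349 tested genes with a window (0.203%). Of the genes called higher with TM, 11 of 1278 with a window held ERSE (0.861%), and of those called lower 1 of 1228 did (0.0814%). The composite site of ATF4 and CHOP was found for 6 of 20 targets of the PERK branch (30%) and for 5 of 12 cytosolic tRNA synthetase genes (41.7%), against 1219 of 27025 genes overall (4.51%) and 292 of 10349 tested genes with a window (2.82%). Of the genes called higher 43 of 1278 held it (3.36%), and of those called lower 40 of 1228 did (3.26%). These matches are a description of letters in the windows, some genes have several starts, and binding was not measured. The motifs and the lists of chaperones and PERK targets both come from prior knowledge of the UPR. An excess in those lists was therefore favoured in advance and is no separate support.

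Chaperones, folding enzymes and the parts of the protein degradation machinery rose together. Of 30 ER chaperones and folding enzymes, 25 were called higher and none lower, with a median log2 fold change of 2.08, beside 11.1% of all genes called higher. Beyond Creld2 and Hspa5 the largest rises were those of Sdf2l1 (5287, 6901 and 5061 with TM, against 315 and 497 in controls, 3.85 log2) and Manf, a secreted ER factor (17890, 18960 and 19970, against 1039 and 2186, 3.65 log2). Pdia4, a disulfide isomerase, rose by 3.40, Hsp90b1 (GRP94) by 3.06 and calreticulin (Calr) by 2.46 on the log2 scale. Canx, the membrane-bound relative of calreticulin, had 7980, 5599 and 6693 with TM, against 3642 and 5322, a difference of 0.60 (SE 0.26) that did not pass (adjusted p = 0.13). Its window also holds ERSE.

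Of 25 genes of ER-associated degradation, which draws misfolded proteins back to the cytosol, 16 were called higher and none lower (median 1.24). Derl3, a channel component that is little expressed in unstressed liver, had 7662, 6465 and 7126 with TM, against 177 and 46.3 (6.27, SE 0.44). The ubiquitin ligase Syvn1 (4822, 4618 and 5686, against 374 and 338, 3.82 log2) and its partner Sel1l (18400, 11700 and 17630, against 2226 and 1972, 2.90 log2) were several-fold higher in all TM livers. The proteasome itself did not follow. Of 31 proteasome genes 1 was called higher (Psmd8, 1.00) and 1 lower (Psma3, -0.89), each losing its call when any of several libraries was left out (adjusted p of up to 0.097 and 0.17), with a list median of -0.14.

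The sensors and transcription factors of the UPR showed a mixed pattern. Of 23 tested, 16 were called higher and none lower (median 1.34). Eif2ak3, the gene of PERK, had 1073, 835 and 1160 with TM, against 199 and 180 (2.42 log2), and Atf6 had 4788, 3705 and 4552, against 981 and 921 (2.18 log2). Ern1, the gene of IRE1, had 937, 741 and 764, against 635 and 392, a difference of 0.70 (SE 0.26) that did not pass (adjusted p = 0.081). Xbp1 had 4283, 4832 and 4919, against 3606 and 3429 (0.41, SE 0.22, adjusted p = 0.21). Gene-level counts do not separate spliced from unspliced Xbp1. Atf4 rose by 2.36 (6127, 5680 and 5513, against 965 and 1301), and Ppp1r15a (GADD34), which reverses the translational block of PERK, by 3.15. Bhlha15 (MIST1), a transcription factor of secretory cells, had 260, 194 and 352 with TM, against 27.8 and 0.91 in the controls. Creb3l3, a liver ER-bound transcription factor, differed by 0.23 and was not called (adjusted p = 0.51).

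Of 23 targets of the PERK-ATF4-CHOP branch, 13 were called higher and none lower (median 2.27). Trib3, a pseudokinase, had 8217, 10140 and 7235 with TM, against 264 in control 2 and 59.0 in control 3 (6.07, SE 0.49). Fgf21, a hormone made by the stressed or fasted liver, had 447, 807 and 1687, against 36.4 and 6.36 (5.68, SE 0.65). Gdf15, another stress hormone, had 663, 676 and 577, against 13.4 and 17.3 (5.30, SE 0.24). Chac1, which breaks down glutathione, had 469, 445 and 1104, against 63.3 and 5.45 (4.92, SE 0.77). Psat1 (serine synthesis, 4.88), Sesn2 (a stress-induced inhibitor of mTORC1, 4.33), the amino acid transporter gene Slc7a1 (3.88) and Asns (asparagine synthetase, 3.29) also rose. Shmt2 (784, 955 and 669 with TM, against 988 and 944) and Cth (5209, 4152 and 3443, against 4629 and 9191), which belong to serine and cysteine metabolism, were not called (adjusted p = 0.42 and 0.19).

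For many of these stress genes the controls stood far apart, with control 2 above control 3 and both below every TM liver. Atf3 had 3697, 4858 and 11720 with TM, 432 in control 2 and 39.0 in control 3 (5.50, SE 0.80). Without control 3 its log2 fold change was 3.78, and without control 2 it was 7.22. The same holds for Ddit3 (5.25 and 7.48), Il23a (5.79 and 8.12), Derl3 (5.31 and 7.22), Trib3 (4.996 and 7.14), Fgf21 (4.50 and 6.85), Bhlha15 (3.19 and 7.10), Chac1 (3.26 and 6.57), Psat1 (3.95 and 5.80) and Slc7a1 (2.95 and 4.80). Each stayed called in every case, with an adjusted p of at most 0.014. For Creld2 (1491 and 1330), Gdf15 and Sesn2 (111 and 68.1) the controls lay closer together. Across the PERK branch list the median difference of control 2 from control 3 was 0.22 log2, and across the chaperone list it was -0.20.

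**Figure D2:**
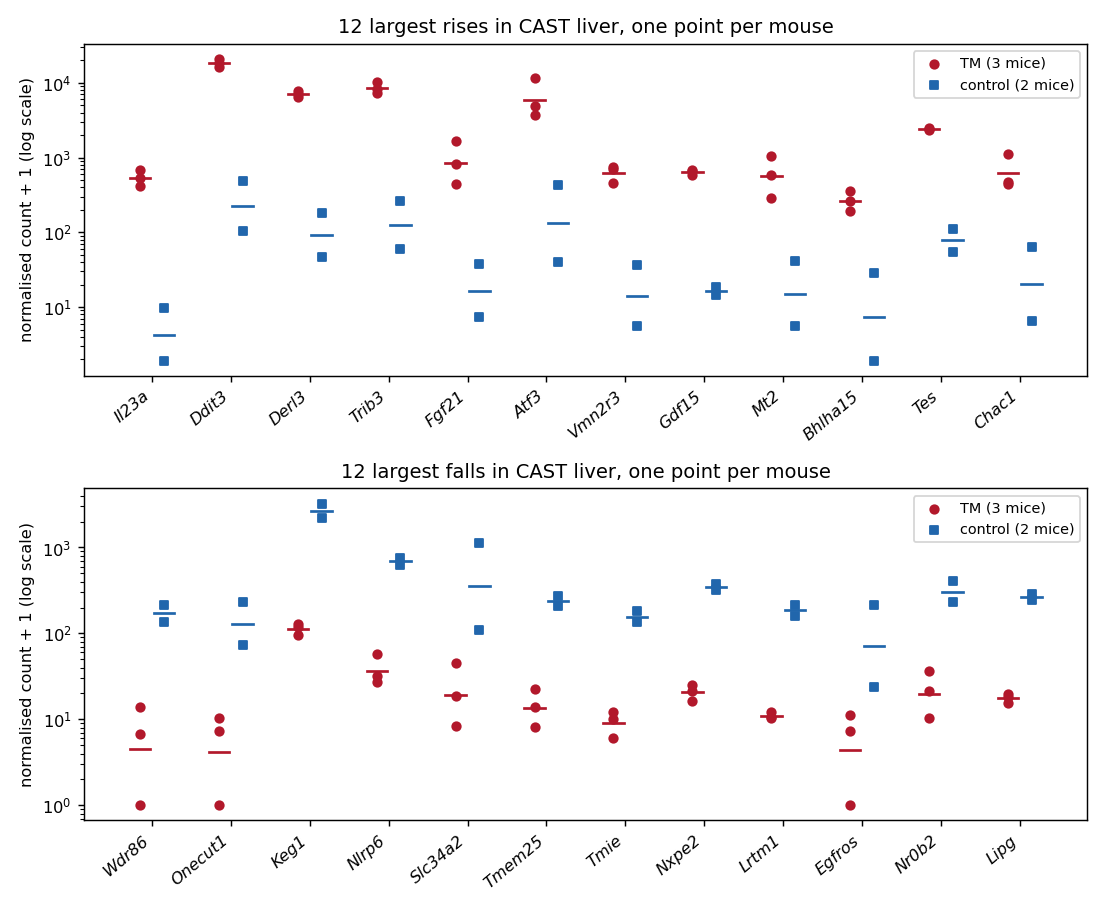
Normalised count + 1 on a log scale for each of the 12 largest rises and 12 largest falls in CAST liver, with 3 TM mice (red circles, left) and 2 control mice (blue squares, right) per gene and bars at the mean of the log2 values. The TM and control points do not overlap for any gene shown, as the rule for choosing them required. Control 2 and control 3 lie close for Gdf15 and far apart for Atf3 and Slc34a2.

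Several large rises were of genes outside the UPR lists. Il23a, Mt2, Tes and Vmn2r3 were among the 12 largest, and Mt1 and Nucb2 ranked below them. Il23a, a subunit of the cytokine interleukin-23, rose most, with 529, 412 and 683 normalised counts with TM, against 8.63 and 0.91 in the controls (6.95, SE 0.56). The metallothionein genes Mt2 (287, 1057 and 583, against 40.3 and 4.54, 5.22 log2) and Mt1 (4919, 14390 and 8224, against 929 and 142, 4.52 log2), which encode metal-binding proteins, rose with a wide spread within both groups. Without control 3 these were 3.77 and 3.17, and without control 2 they were 6.66 and 5.87. Tes, which encodes a focal adhesion protein, had 2326, 2392 and 2453 with TM, against 111 and 53.6 (4.93, SE 0.29). Nucb2, a calcium-binding protein precursor, had 2317, 1773 and 1678, against 77.7 and 56.3 (4.83, SE 0.25).

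Vmn2r3, listed as a vomeronasal receptor, had 739, 708 and 452 with TM, against 35.5 and 4.54 (5.44, SE 0.62, and 4.09 without control 3). It supplied much of the olfactory, vomeronasal and trace amine receptor reads, which were 127, 128 and 72.4 RPM (reads scaled to library size) in TM livers and 62.4 and 39.4 in controls. Without Vmn2r3 they were 48.3, 65.1 and 26.3 RPM with TM, against 59.1 and 39.0, and the groups overlapped. Of its 6 nearest tested genes in the reference annotation none was called, with log2 fold changes of 0.37 to 0.79.

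Genes along the secretory pathway were mostly higher, at smaller folds. Of 24 genes of translocation into the ER and signal peptide removal, 20 were called higher (median 1.18), led by Ssr3 of the translocon-associated complex (12680, 8765 and 9994 with TM, against 2147 and 2469, 2.17 log2), and the single one called lower was Tram2 (-1.77), which lost its call without TM 1, TM 3 or control 2 (adjusted p of up to 0.2). Of 35 genes of N-glycan assembly and transfer, 19 were called higher and none lower (median 0.87). Dpagt1, whose product is the enzyme that TM inhibits, had 387, 303 and 402 with TM, against 186 and 134 (1.19, SE 0.25, adjusted p = 0.0079), and was not called without control 3 (0.95, adjusted p = 0.063). Gfpt1, the first enzyme toward the sugar donor of this pathway, rose most (3246, 2150 and 2837, against 373 and 312, 2.98 log2). Of 35 genes of ER to Golgi transport, 25 were called higher and 1 lower (median 0.98). Kdelr3, a receptor that returns chaperones to the ER, had 93.3, 109 and 102, against 7.67 and 4.54 (3.88, SE 0.34). Sec16b, a paralogue of the ER exit site scaffold, fell by 1.30 (521, 464 and 458, against 1165 and 1202). Left-out libraries lowered these counts of members called higher to as few as 14 of 24 and 11 of 35 (both without control 2) and 17 of 35 (without TM 3).

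Genes that supply translation rose as well. Of 20 cytosolic tRNA synthetases, 14 were called higher and none lower (median 0.98), and without control 2 there were 8. Wars, for tryptophan, rose most (1376, 1354 and 1761 with TM, against 168 and 215, 2.96 log2), followed by Vars (1.85). Of 40 genes of ribosome biogenesis, 27 were called higher and none lower (median 1.03), and without control 2 there were 16. Nop58, a core protein of box C/D nucleolar particles, had 1164, 833 and 1100, against 203 and 252 (2.17, SE 0.24).

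**Figure D3:**
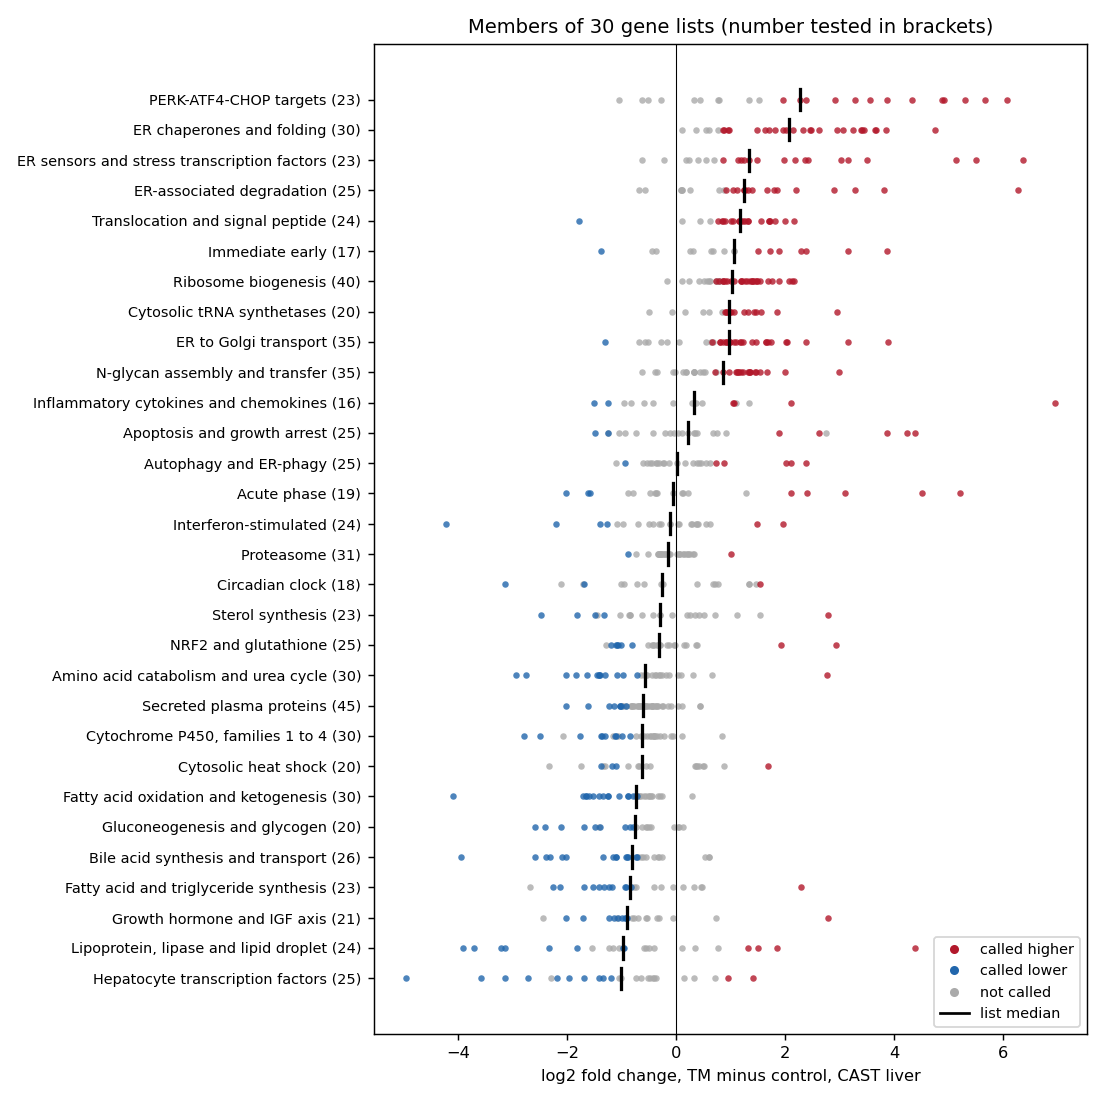
Log2 fold changes (TM minus control) in CAST liver of the tested members of 30 gene lists, ordered by the list median (black bar). Red, blue and grey points are members called higher, called lower and not called. Lists of the UPR, secretion, tRNA charging and ribosome biogenesis have medians from 0.87 to 2.27, and lists of hepatocyte metabolism and transcription factors have medians down to -1.01.

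The metabolic genes of the hepatocyte showed the opposite direction. Of 30 genes of fatty acid oxidation and ketogenesis, 15 were called lower and none higher, beside 10.4% of all genes called lower (median -0.74). Hadh, an enzyme of β-oxidation, had 634, 802 and 585 with TM, against 2254 and 2094 (-1.70, SE 0.22), and Ehhadh, of the peroxisomal pathway, fell by 1.60. The fatty acid binding protein gene Fabp1 had 11070, 13960 and 8092, against 41860 and 27420 (-1.65, SE 0.31). Ppargc1a, a coactivator of this programme, had 2.88, 7.39 and 0, against 53.7 and 52.7 (-4.09, SE 0.82), at -3.25 without TM 3, and it was no longer called without either control (adjusted p = 0.057 and 0.056). Ppara, its nuclear receptor, had 487, 478 and 194, against 1783 and 708 (-1.66, SE 0.46). It lost its call without control 2 (-0.99, adjusted p = 0.23) and without TM 3 (-1.22, adjusted p = 0.069). Without control 3 the number of lower members was 8.

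Of 23 genes of fatty acid and triglyceride synthesis, 11 were called lower and 1 higher (median -0.84), and without control 3 there were 7 lower. Srebf1, the transcription factor of lipogenesis, had 307, 458 and 298 with TM, against 2187 and 1262 (-2.25, SE 0.29). Gpam, the first step of triglyceride assembly, fell by 2.12. The member called higher was Lpin1 (3138, 2161 and 3018, against 485 and 632, 2.30 log2), which encodes a phosphatidate phosphatase and transcriptional coactivator. Among 24 genes of lipoproteins, lipases and lipid droplets, 8 were called lower and 4 higher. The carboxylesterase genes Ces1d (211, 466 and 1205 with TM, against 4797 and 8678, -3.71 log2, and -3.10 without TM 1), Ces1f (281, 364 and 333, against 3037 and 3008, -3.22 log2) and Ces1g (-3.13) fell, and so did Lipg (endothelial lipase, -3.91) and Lrp1 (a clearance receptor, -2.34). Cidec, a protein that enlarges lipid droplets, had 1011, 1757 and 1375, against 67.1 and 59.9 (4.39, SE 0.26), and Plin2, which coats droplets, rose by 1.85. Apob, the main protein of secreted lipoproteins, was lower in every TM liver (100700, 64350 and 73530, against 171900 and 137400) but was not called (-0.98, adjusted p = 0.071). Such separation was common, since 25.6% of all tested genes had every TM value below both controls. The carboxylesterase genes are related neighbours, and some reads could have been shared among them.

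Of 26 genes of bile acid synthesis and transport, 15 were called lower and none higher (median -0.81), and without control 3 there were 8. Nr0b2 (SHP), the repressor of bile acid synthesis, had 20.2, 35.1 and 9.26 with TM, against 408 and 229 (-3.95, SE 0.49). Cyp7a1, the rate-limiting enzyme of the pathway that SHP represses, had 783, 802 and 167, against 2845 in both controls (-2.59, SE 0.56), and was no longer called without either control (adjusted p = 0.05 and 0.051). Akr1d1 (-2.32), the sterol exporter gene Abcg8 (-2.38, and -1.63 without control 2) and the bile acid uptake carrier Slc10a1 (1182, 1190 and 1011, against 5078 and 4517, -2.09 log2) fell. Of 20 genes of gluconeogenesis and glycogen, 9 were called lower and none higher (median -0.76), and without TM 3 there were 5. Pck1, which commits carbon to glucose, had 3226, 5447 and 1167, against 15660 and 17080 (-2.58, SE 0.51, and -1.96 without TM 3), and G6pc had 2135, 1245 and 1111, against 5093 and 4174 (-1.68, SE 0.29).

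Of 30 cytochrome P450 genes, 10 were called lower and none higher (median -0.62), and without control 3 there were 4. Cyp1a2 had 554, 796 and 716 with TM, against 3113 and 4726 (-2.49, SE 0.26), and Cyp4a10, a target of PPARα, fell by 2.78 (-1.98 without control 3). The abundant Cyp2e1 (37870, 38940 and 34280, against 48750 and 47690) was lower in all TM livers by 0.38 log2 without passing (adjusted p = 0.36). Of all tested genes, 25.6% likewise had every TM value below both controls. Of 30 genes of amino acid catabolism and the urea cycle, 13 were called lower (median -0.57). Hal, which opens histidine breakdown, fell by 2.75 and Arg1, the last enzyme of the urea cycle, by 2.02 (3905, 4760 and 3749, against 11360 and 24680). The 1 called higher was Got1 (6245, 4841 and 7341, against 1110 and 710, 2.77 log2), the cytosolic aspartate aminotransferase.

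Of 45 genes of secreted plasma proteins, 8 were called lower and none higher, beside 10.4% of all genes called lower. Their median was -0.60, against -0.04 over all genes. Without TM 3 there were 5 lower, beside 1125 of all 17192 genes tested in that fit. Alb (albumin) had 253800, 326400 and 367600 with TM, against 442700 and 674800 (-0.81, SE 0.42, adjusted p = 0.21), and 41 of the 45 had a negative log2 fold change. Igfals, which carries circulating IGF1, fell by 2.02, and Igf1 itself had 1839, 2146 and 2136, against 4474 and 4485 (-1.14, SE 0.21). In the growth hormone and IGF list of 21, 9 were called lower and 1 higher, and without control 2 the number lower was 4. The member called higher was Igfbp1 (2607, 2555 and 3015, against 482 and 319, 2.79 log2), a binding protein that restrains IGF1.

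The transcription factors that maintain hepatocyte identity included some of the largest falls. Of 25, 10 were called lower and 2 higher (median -1.01). Without control 2 these were 5 and 0. Onecut1 (HNF6) had 6.33, 9.24 and 0 with TM, against 232 and 71.8 (-4.95, SE 0.91), with -3.91 without TM 3, and lost its call without control 2 (-4.11, adjusted p = 0.059). Nr1i3 (CAR), the xenobiotic receptor, had 22.5, 44.3 and 53.5, against 507 and 416 (-3.57, SE 0.36), and Hlf, a clock-controlled factor, fell by 3.13. Foxa2 had 75.4, 62.8 and 44.2, against 270 and 279 (-2.19, SE 0.28), while its paralogue Foxa3 had 753, 1142 and 712, against 355 and 537 (0.96, SE 0.28, adjusted p = 0.034), a call that was lost without TM 2, TM 3 or control 2 (adjusted p of up to 0.23). Rora, a nuclear receptor, rose by 1.42, and was not called without either control (adjusted p = 0.052 in both cases). Hnf4a, the central factor of the network, had 4013, 3801 and 2034, against 3244 and 5063, and was not called (adjusted p = 0.47).

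Among the other large falls, Keg1, annotated as a kidney-expressed gene that encodes a glycine acyltransferase-like protein, had 119, 94.2 and 128 with TM, against 2215 and 3239 (-4.56, SE 0.25). Nlrp6, an innate immune sensor, had 57.0, 25.9 and 30.9, against 751 and 629 (-4.23, SE 0.34). Wdr86 (-5.23, and -4.14 without TM 3), Tmem25 (-4.12), Tmie (-4.10), Nxpe2 (-4.08) and Lrtm1 (-4.06) were at 0 to 24.0 normalised counts in every TM liver and at 133 to 378 in both controls. Slc34a2, a phosphate carrier, had 17.9, 7.39 and 44.3, against 109 in control 2 and 1133 in control 3 (-4.20, SE 0.88), and was not called without control 3 (-2.52, adjusted p = 0.067). Egfros, a noncoding RNA beside Egfr (-4.03), was not called without control 2 (-2.44, adjusted p = 0.28) or without TM 2 (-2.97, adjusted p = 0.059).

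Inflammatory and other stress lists held calls in both directions, and several of their shares were near those of all genes (11.1% higher and 10.4% lower). Of 19 acute phase genes 5 were called higher and 3 lower (median -0.05), and without control 2 there were 7 lower. Hamp, the gene of the iron hormone hepcidin, had 7035, 11850 and 12290 with TM, against 928 and 1492 (3.10, SE 0.31), while Hp (haptoglobin) had 26990, 32990 and 27110, against 30230 and 46310, and was not called (adjusted p = 0.41). Among 16 cytokine and chemokine genes, 4 were called higher (2 without TM 3) and 2 lower, and among 24 interferon-stimulated genes 2 were called higher and 4 lower. The NF-κB inhibitor Nfkbia fell by 1.51 (97.3, 124 and 107, against 345 and 281), and Relb rose by 2.11. Tnfrsf12a, a receptor of injured liver, had 1351, 2810 and 1891, against 94.9 and 89.0 (4.38, SE 0.29). Of 25 genes of apoptosis and growth arrest, which include Tnfrsf12a, 5 were called higher, 2 lower and 18 neither (median 0.22). Gadd45a (4.23, and 3.31 without control 3), Btg2 (3.87) and Plk3 (2.61) were among those called higher, and the 2 called lower were the death receptor gene Fas (-1.48) and Bik (-1.24), both named after their values were seen. Of 17 immediate early genes 7 were called higher and 1 lower, with Myc at 189, 366 and 395, against 36.4 and 29.97 (3.15, SE 0.34). Of 25 NRF2 and glutathione genes, 2 were called higher and 6 lower, and 1 was lower without control 3. Hmox1, which breaks down haem, had 528, 1029 and 1976, against 91.1 and 195 (2.93, SE 0.49), while Cat (catalase) fell by 1.11. Sqstm1 (12460, 14460 and 18970, against 2500 and 3331, 2.38 log2) and the protease gene Ctsl (35500, 39300 and 38150, against 8441 and 9049, 2.11 log2) were among 5 of 25 autophagy genes called higher (3 without TM 2), with 1 lower.

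For cytosolic heat shock and for sterol synthesis the result turned on the control. Of 20 heat shock genes 1 was called higher and 3 lower. The median log2 difference of control 2 from control 3 was -1.16 in this list, and 10 members were called lower without control 2 and 0 without control 3. Hspa8, the constitutive HSC70, had 2027, 2488 and 2888 with TM, against 2068 in control 2 and 7599 in control 3, and Hsp90ab1 had 2008, 1938 and 2140, against 3583 and 5837 (-1.17, SE 0.25, adjusted p = 0.066 without control 3). Of 23 sterol synthesis genes 1 was called higher and 4 lower, with a median difference of control 2 from control 3 of -1.43. Without control 2 there were 11 lower, and without control 3 there were 7 higher and 2 lower. Mvd was above both controls (1308, 1184 and 1903, against 96.8 and 445, 2.78 log2, with 1.69 without control 2) and Idi1 below both (104, 64.7 and 131, against 276 and 1059, -2.48 log2, with -1.52 without control 3).

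A run of neighbouring genes on chromosome 2 fell almost as a block. It was noticed in the values and then delimited, as the 58 tested genes from Gm14444 to Zfp931 in the order of the GENCODE annotation of the B6 reference, and it has no test of its own. Most of these genes encode KRAB zinc finger proteins, a family that binds DNA and is known for silencing transposable elements. Of the 58, 50 were called lower and none higher (median -2.21), beside 10.4% of all genes. Their summed level was 4209, 3066 and 3139 normalised counts with TM, against 13740 in control 2 and 27170 in control 3. Zfp970, the most abundant, had 515, 347 and 342, against 3929 and 7867 (-3.82, SE 0.32). Zfp966 had 29.9, 33.2 and 19.5, against 214 and 492 (-3.54, SE 0.39), and Zfp968 had 32.2, 25.9 and 25.7, against 210 and 500 (-3.50, SE 0.37). Without control 3 both were smaller, at -2.94 and -2.87. The 5 processed pseudogenes of other genes that lie inside the run were not called. Of 295 other tested genes named Zfp and a number, 31 were called higher and 17 lower, with a median of 0.02. Without control 3 the number lower in the run was 36, and under each other left-out library it was 49 to 51. The members are near-identical copies, so reads of one can be counted for another and the 50 calls are not independent. In B6 liver 8 of 50 tested were called lower (6.45% of all genes there, median -0.68). None of 50 differed between CAST and B6 liver by the interaction test, where only 0.0239% of all genes did. That count cannot show that the strains responded alike. In CAST kidney 3 of 58 were called lower (4.7% of all genes there, median -0.52), and 20 of 58 had a lower response in liver than in kidney by the interaction test, where 2.03% of all genes did. The run was chosen for its fall in these same CAST livers, so that excess was favoured in advance and is no separate support.

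**Figure D4:**
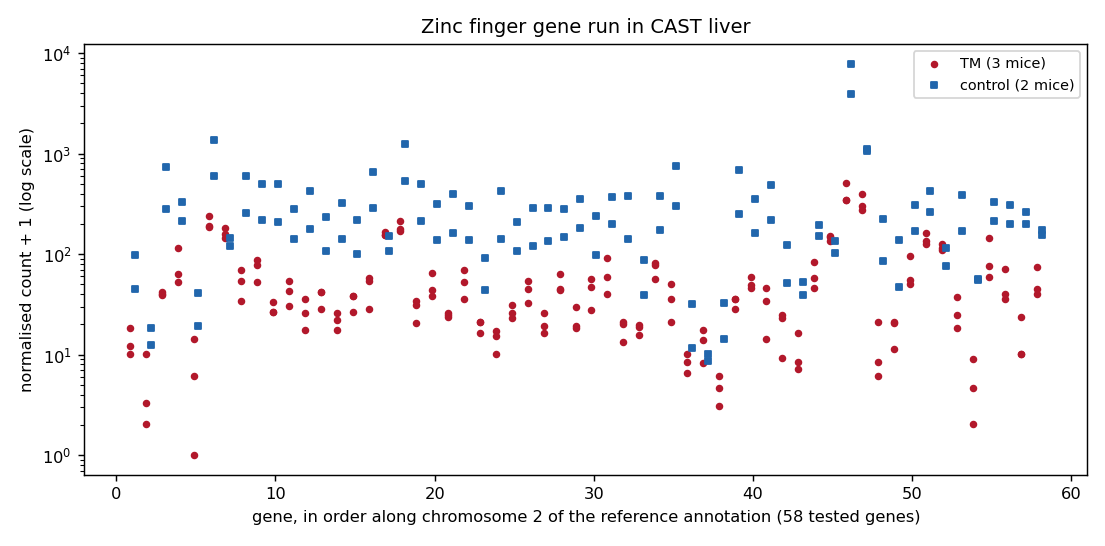
Normalised count + 1 on a log scale of 58 tested genes of the zinc finger run in CAST liver, placed in their order along chromosome 2, with 3 TM mice (red circles, left) and 2 control mice (blue squares, right) per gene. TM points lie below control points along most of the run, and the highest gene is Zfp970.

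Set against B6 liver (2 TM and 3 control samples), only 4 of 16764 genes (0.0239%) had a response that differed by the interaction test at an adjusted p below 0.05. B6 is the C57BL/6J reference strain, treated in the same way. Fmn1, which encodes the actin nucleator formin 1, had 1225, 637 and 666 with TM and 203 and 188 in controls of CAST liver (2.03, SE 0.30). In B6 liver it had 92.2 and 97.2 with TM and 162, 209 and 227 in controls (-1.05, SE 0.30). The difference of 3.09 (SE 0.42) had an adjusted p of 0.042 by limma. Fam129b, a cytoplasmic protein linked to cell survival, had 52.4, 83.1 and 58.7 with TM, against 743 and 663 in CAST liver (-3.45, SE 0.27). Its B6 liver values were 72.1 and 68 with TM, against 99.2, 140 and 105 (-0.69, SE 0.32), and the difference was -2.76 (SE 0.39, adjusted p = 0.042). In these values the CAST controls lay above the B6 controls, and the TM livers of both strains lay close together. Each table was normalised on its own, so levels across tables are approximate.

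Aacs, an enzyme that activates acetoacetate for lipid synthesis, had 520, 393 and 485 with TM, against 308 and 475 in CAST liver (0.28, SE 0.26), and 364 and 327 with TM, against 1408, 2143 and 1989 in B6 liver (-2.39, SE 0.29). The difference was 2.67 (SE 0.38, adjusted p = 0.042). The last gene was Tlr12, a receptor of innate immunity that is low in CAST liver (12.7, 25.9 and 20.6 with TM, against 18.2 and 10.9) and had 13.01 and 15.0 with TM, against 452, 156 and 338 in B6 liver. Its difference was 4.67 (SE 0.66, adjusted p = 0.042). These 4 calls rest on few samples. With each library left out in turn the count was 0 in 6 of 10 cases, among them each TM sample of CAST liver, and it was 96 without B6 liver TM 3. Of the tested members of the 30 lists Tlr12, placed with the interferon-stimulated genes, was the 1 that differed.

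Set against CAST kidney (3 TM and 3 control samples), 550 of 16330 genes (3.37%) differed in their response, with 218 higher in liver (1.33%) and 332 lower in liver (2.03%). By the study's methods both tissues came from the same set of mice. The labels do not tie a liver to a kidney, so the fit took all samples as independent and ignored any sharing of animals. S1pr1, the receptor of sphingosine 1-phosphate, had 89.8, 61.0 and 80.3 with TM, against 738 and 1118 in CAST liver (-3.56, SE 0.28). In CAST kidney it had 319, 247 and 248 with TM, against 183, 182 and 222 (0.47, SE 0.18). The difference of -4.03 (SE 0.33) had an adjusted p of 0.00016 by limma. Tsc22d1, a transcriptional regulator, had 681, 717 and 1062, against 4925 and 5722 in liver (-2.72, SE 0.25), and 7260, 4852 and 4374, against 2654, 2420 and 2542 in kidney (1.08, SE 0.22). The opposite directions gave a difference of -3.80 (SE 0.34, adjusted p = 0.00031).

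Plcxd2, a phospholipase-like gene, hardly differed in liver (1423, 1049 and 937, against 1522 and 1158, -0.25) while in kidney it was at 924, 804 and 1091 with TM, against 75.0, 69.0 and 66.8 (3.71, SE 0.17). The difference was -3.96 (SE 0.29, adjusted p = 0.00016). Sgk2, a kinase, rose in liver (1634, 1465 and 1677, against 440 and 351, 2.01 log2) and was lower in kidney (1007, 1118 and 967, against 1833, 1894 and 1694, -0.81 log2), a difference of 2.82 (SE 0.23). Ttc23 (2.33), Cln8, an ER cargo receptor (2.59, from 3.49 in liver and 0.90 in kidney), and Amigo3 (2.73) also had a higher response in liver, and Fam129b had a lower one (-3.59, SE 0.33).

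**Figure D5:**
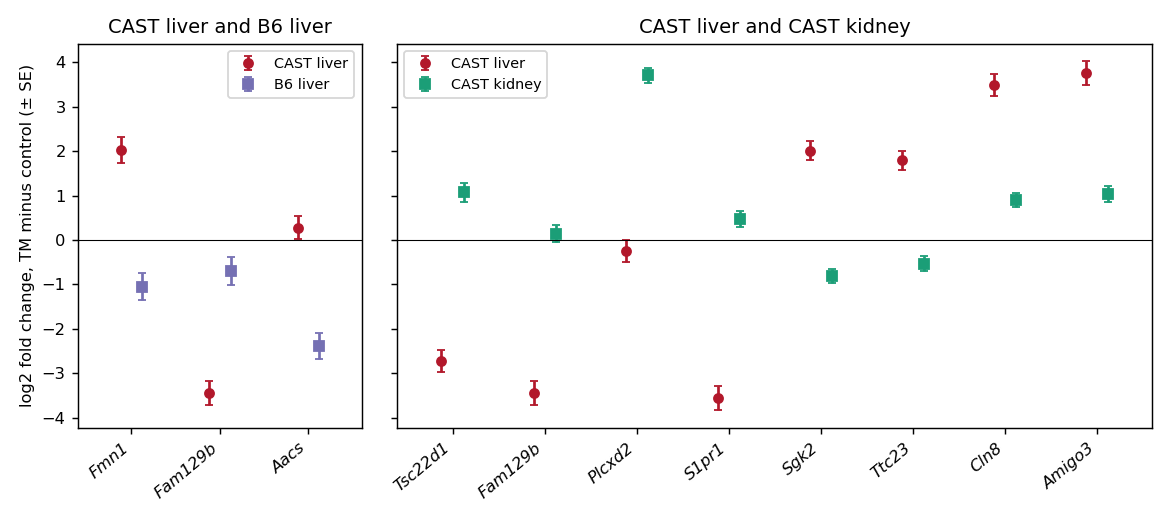
Log2 fold changes (TM minus control) ± SE in CAST liver (red circles, left of each pair) and B6 liver (left panel, squares) or CAST kidney (right panel, squares). Shown are the genes of each interaction with the smallest adjusted p, below 0.05, and a mean of at least 50 in both tables. Tlr12, which also differed from B6 liver, was below that mean in CAST liver and is not shown. Fmn1, Tsc22d1 and Sgk2 lie on opposite sides of 0, while Cln8 and Amigo3 rose in both tissues and by more in liver.

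No gene of 30 ER chaperones and 25 degradation genes had a response that differed between CAST liver and kidney, with medians of 2.08 and 1.24 in liver beside 1.99 and 1.14 in kidney. Over all genes 3.37% differed (1.33% higher and 2.03% lower in liver), so a count of 0 in lists of this size is near the background. Of 23 genes of the PERK branch 1 had a higher and 3 a lower response in liver, and of 20 tRNA synthetases 4 had a lower one (medians 0.98 in liver and 1.89 in kidney). Among 20 tested hepatocyte transcription factors 2 had a lower response in liver, and among 19 tested bile acid genes 4 did. A response that was not called different may still differ, and these counts depended on the libraries: without CAST kidney TM 2 the total was 235, and without CAST liver TM 3 it was 316. Mrs2, a mitochondrial magnesium channel that the study examined, had 549, 478 and 536 with TM, against 266 and 234 in CAST liver (1.06, SE 0.22, adjusted p = 0.0065). Its response exceeded that of CAST kidney by 1.25 (SE 0.23, adjusted p = 0.014), and the difference from B6 liver was 1.48 (SE 0.30, adjusted p = 0.19). The study called the liver responses of Mrs2, Tlr12 and Nlrp6, among others, genotype-dependent by another test, which also took in hybrids of both strains. That test called more liver genes than the interaction with B6 liver did here.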

How the data were processed

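Total RNA libraries depleted of ribosomal RNA (TruSeq Stranded Total RNA, Ribo-Zero Gold) were aligned by the authors to the genome of the strain with Bowtie2 2.2.9. The submitters' processing notes also name SAMtools 1.12, with no role. Neither the counting tool nor strand-aware counting is given in the sources used here, so overlapping and antisense genes cannot be told apart. Each deposited table holds a normalised signal, which the authors obtained by scaling gene counts with size factors from DESeq2 1.28.1 within that table alone. For CAST liver, 100% of values were whole reads within 0.01 after division by the smallest positive value of the column. Symbols matched 28682 of 28722 identifiers.

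TM was compared with control in R 4.3.3 by limma 3.58.1 (mean-variance trend) on log2(value + 1), for genes with a mean of at least 5. That pseudocount understates changes of low genes. Interactions were fitted over both tables. The thresholds are those of the study's methods. edgeR 4.0.16 and DESeq2 1.42.0 were run on the recovered reads of CAST liver as alternatives, and the fits were tested on simulated data.

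Genes, lists and tests were chosen with earlier results of these data known. Named genes were the 12 largest rises and 12 largest falls (called, mean of at least 50, groups apart, with a symbol, no predicted gene or pseudogene), up to 4 called and 2 uncalled members of each of 30 lists, up to 8 per interaction, and Hspa5, Hyou1, Ddit3, Herpud1, Tsc22d1 and Mrs2. Ern1, Nucb2, Zfp966, Zfp968, Zfp970, Zfp931, Hsp90b1, Calr, Pdia4, Atf4, Atf6, Eif2ak3, Ppp1r15a, Sesn2, Asns, Psat1, Slc7a1, Dpagt1, Tram2, Sec16b, Ppargc1a, Foxa2, Foxa3, Rora, Slc10a1, Lrp1, Plin2, Ces1g, Marco and Tlr12 were named after their values were seen. The 9 marker lists covered liver cell types, blood cells and kidney tubule. Neutrophil, lymphocyte and erythroid markers (3, 3 and 6 tested) held no called gene, and the circadian clock list (18 tested) held 1 called higher and 2 lower. Results on some withheld items are not reported here.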

Additional observations from a re-analysis of the deposited data

Results flagged for a closer look

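The response of 4 genes differed between CAST liver and B6 liver and that of 550 differed between CAST liver and CAST kidney, each by an interaction term in limma at an adjusted p below 0.05. Against B6 liver the 4 differences in log2 fold change were those of Tlr12 (4.67), Fmn1 (3.09), Fam129b (-2.76) and Aacs (2.67), each with an adjusted p of 0.042. Against CAST kidney the 8 genes with the smallest adjusted p among those with a mean of at least 50 in both tables were Plcxd2 (-3.96), S1pr1 (-4.03), Sgk2 (2.82), Tsc22d1 (-3.80), Fam129b (-3.59), Ttc23 (2.33), Cln8 (2.59) and Amigo3 (2.73), with adjusted p from 0.00016 to 0.0016. Mrs2 differed too (1.25, adjusted p = 0.014), as did other genes named in the text whose differences are not listed. Fam129b is in both sets, and both comparisons use the same 5 CAST liver samples. The cause of these differences was not tested.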

How the results depend on the processing

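Of 118 named genes called in CAST liver, all kept their call with TMM scaling, a median set to 0, edgeR, DESeq2, either other pseudocount (0.5 and 5) or a minimum mean of 20, 113 kept it with no filter on low values and 109 with limma without the trend. Without that trend 1286 genes were called higher and 1086 lower, 0 differed from B6 liver and 360 from CAST kidney. With no filter on low values 1473 genes were called higher and 1267 lower. With a pseudocount of 5, 8 genes differed from B6 liver. With each library left out in turn the counts ranged from 1198 to 1686 higher, 982 to 1615 lower, 0 to 96 for B6 liver and 235 to 527 for CAST kidney. Without control 2, 11 named calls were lost, and without control 3, 7 were. Hspa8, not called, had -1.64 without control 2 and 0.24 without control 3, and Aacs had -0.037 and 0.587. In the zinc finger run 36 to 51 genes were called lower over the alternatives run for CAST liver, a check chosen after seeing the data. The cause of these shifts was not tested. The replicate numbers were not taken to pair the samples, since no label says that they do. CAST liver has 2 such pairs, with correlations of deviations of 0.041 and 0.225. With 2 controls the deviations of one mirror those of the other, so these correlations cannot show or exclude pairing. With the replicate number as a block 2230 genes were called higher, 2288 lower, 53 differed from B6 liver and 433 from CAST kidney. For the interactions edgeR and DESeq2 were not run. With 2 controls, each control sets much of a fold change, and values near 0 rest on a few reads.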
